A study of Mus musculus with 20 samples.

Results

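The immediate early genes followed in mouse kidney were Fos, Fosb, Jun, Junb, Egr1, Atf3, Ier2, Ier3, Dusp1 and Zfp36. They were taken by gene symbol, with all their probe sets, from an array that measures 12393 named genes with 22626 probe sets. Each of the 10 genes was found, with 11 probe sets in all, since Jun has a pair (1417409_at and 1448694_at). The values given are log2 GCRMA intensities, so a difference of 1 is a doubling, and levels of different probe sets are not compared with each other.

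Immediate early genes are switched on within minutes of a growth factor, a stress or an injury, without new protein synthesis, and their messages are short lived. Kinase cascades act on factors that already sit at their promoters, such as serum response factor and CREB. Fos and Jun family proteins pair to form the transcription factor AP-1, Egr1 and Atf3 are further early transcription factors, and Dusp1 and Zfp36 end the response, Dusp1 by removing phosphate from MAP kinases and Zfp36 by speeding the decay of unstable messages. In the kidney these genes are known to respond to ischaemia, toxins and handling of the tissue.

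The study asked how male and female kidneys differ before and after injury. It used Balb/c mice of about 10 weeks in 4 groups of 5. These were healthy males and healthy females (control groups), and males and females given doxorubicin (doxorubicin groups). Whether the controls received an injection without the drug is not stated. The doxorubicin groups received 12 mg/kg doxorubicin into a vein, a drug that damages podocytes in this strain. Their kidneys were taken on day 14. Total RNA of the kidney was hybridized to 1 array per animal. Animals are named here by sex letter and label number, for example M30-4 for male 30-4. The kidney was measured as a mixture of cells, so fewer cells of a type and less RNA per cell cannot be told apart.

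Some arrays stood apart before any member was considered. On the third principal component, which held 9.4% of the variance, doxorubicin male M30-4 scored 63.9 and control female FNo5 scored 55.7, and the other 18 were between -18.4 and 6.0. Signal at the 5′ end of the pyruvate carboxylase array control was above 3 on 6 arrays, those of M13, M12, FNo5, M7, M9 and M11. In males these are exactly the 5 kidneys whose label number has no prefix, so the signal and the number series cannot be told apart there. Control male M12 gave 5.91 on a probe set of Xist that read 2.05 to 2.78 in the other males and at least 8.79 in the females. All 8 proximal tubule markers were measured, with a log2 summed intensity of 17.25 to 17.56 in every animal. Of 6 podocyte markers 4 were measured, with Podxl at 9.79 to 12.14, Synpo at 7.16 to 9.81, Wt1 at 3.45 to 4.80 and Nphs1 at 2.76 to 4.56.

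Promoter windows, from 250 bases before to 50 bases after the annotated start, were matched for 8 of the 10 members in RefSeq on build GRCm38.p6 (not Egr1 and Ier2). Stretches of 4 of them are shown, those of Fos and Jun, the AP-1 genes with their highest values in M30-4, and of Dusp1 and Zfp36, the feedback genes. They are read 5′ to 3′ on the strand of the gene. Capitals mark the motifs searched on both strands: TGACGTCA, the cAMP response element, and its core TGACG, which lies within it; TGACATCA; the CArG box of serum response factor; the Egr sites GCGGGGGCG and GCGTGGGCG; and TATAAA. The AP-1 sites TGACTCA and TGAGTCA were searched too.
Fos, chr12:85473750-85473869, plus strand: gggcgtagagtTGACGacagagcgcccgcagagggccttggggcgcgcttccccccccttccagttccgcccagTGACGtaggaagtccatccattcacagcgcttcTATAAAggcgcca
Jun, chr4:95052223-95052302, minus strand: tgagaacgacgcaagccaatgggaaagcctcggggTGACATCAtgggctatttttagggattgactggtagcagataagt
Dusp1, chr17:26508593-26508677, minus strand: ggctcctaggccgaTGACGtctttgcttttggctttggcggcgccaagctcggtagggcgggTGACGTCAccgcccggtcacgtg
Zfp36, chr7:28379264-28379343, minus strand: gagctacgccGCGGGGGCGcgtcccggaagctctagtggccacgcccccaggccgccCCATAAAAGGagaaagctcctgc

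The full TGACGTCA lay in 1 of the 8 member windows, that of Dusp1, 143 bases before the start, and in 1.79% of 32851 windows of the same length. The core TGACG lay in 5 of 8 (Atf3, Fosb, Junb, Fos and Dusp1), against 20.8% of all windows. In Fos it stood 129 and 66 bases before the start, with TATAAA at 33 bases. TGACATCA was held by the Jun window at 45 bases and by 3.62% of all. The CArG box was in the Zfp36 window at 58 bases and in 1.63% of all, and an Egr site was in those of Zfp36 and Fosb and in 3.47% of all. TATAAA was in 2 of 8, Fos and Junb, and in 13.6% of all. The AP-1 letters were in 0 of 8 and in 5.2% of all, which says only that they are not in these windows. These matches are descriptions of sequence, not of binding.

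Fos, the AP-1 subunit best known for its rapid rise, was flat in most kidneys and high in a few. Control males read 2.60, 2.60, 2.63, 2.55 and 2.63. Control females read 3.67, 3.69, 2.28, 4.72 and 3.65. Of the control females 4 of 5 were therefore above all control males, and F10-2 was below them.
Doxorubicin males read 2.62, 5.48, 2.27, 2.62 and 2.56, where 5.48 belongs to M30-4 and is the highest value of the 20. Doxorubicin females read 2.31, 4.54, 2.64, 3.37 and 2.62, with F4 the highest. In 10 of 20 kidneys Fos lay between 2.55 and 2.64, and M7, F10-2 and F3 lay below this range, at 2.27, 2.28 and 2.31. A window of 0.1 held at least as many arrays for 89.0% of the 2374 probe sets with a mean within 0.5 of it. The 2 kidneys next to M30-4, F30-6 at 4.72 and F4 at 4.54, came from different treatments.

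Fosb, a partner of Jun like Fos, read 1.80 to 1.83 in all 20 kidneys. A window of 0.1 held all 20 arrays also for 71.3% of the 4799 probe sets with a mean within 0.5 of it, so this probe set gave no usable level.

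Jun, the main partner of Fos, was measured by both probe sets. With 1417409_at control males read 8.36, 9.08, 8.44, 8.79 and 9.30, and control females 9.18, 8.26, 8.15, 8.24 and 8.95. Doxorubicin males read 8.60, 9.92, 8.04, 8.25 and 8.60, and doxorubicin females 7.98, 8.11, 8.06, 8.48 and 8.22. The 9.92 is that of M30-4, and the other probe set was also highest there, at 9.46, with F1 next at 8.88. The doxorubicin females, from 7.98 to 8.48, overlapped the low kidneys of every other group.
In males and females whose label numbers carry no prefix, Jun was lower in the 3 doxorubicin kidneys than in the 2 control kidneys, by -0.89 in males and -1.01 in females. Values of this series did not overlap in 25.2% of all probe sets in males and in 22.4% in females. In the males numbered 30- Jun was 0.73 higher after doxorubicin, with M30-4 at 9.92. There M30-3, at 8.60, lay within its controls at 8.36 to 8.79. In the females numbered 10- Jun was 0.14 higher, and the values overlapped. The dimmer probe set (1448694_at) differed by -0.40 and -0.35 in the kidneys without prefix and by 0.59 and 0.69 in the others. The direction of the mean difference thus turned with the number series in both probe sets. With the dimmer one too M30-3, at 8.47, lay within its controls, at 8.17 to 8.54.

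Junb, an AP-1 subunit that forms weaker activators than Jun, was the member with the smallest p of all comparisons. Control males read 4.22, 4.76, 3.94, 4.16 and 4.28, and doxorubicin males 4.17, 4.35, 5.43, 6.14 and 5.79. The 3 high doxorubicin males were M7, M9 and M11, whereas M30-3 and M30-4 lay with the controls. Control females read 4.21, 4.21, 4.21, 4.25 and 5.40, and doxorubicin females 4.31, 4.21, 4.22, 5.67 and 4.21. In each female group a single kidney, FNo5 or F10-3, stood above the other 4.
The high values went with an array measurement. On the 6 arrays with 5′ pyruvate carboxylase signal Junb read 4.28 to 6.14 with a median of 5.41, and on the other 14 it read 3.94 to 5.67 with a median of 4.21. Apart from F10-3 no array without this signal exceeded 4.35. The part of this signal in the difference was not tested beyond the fits given with the comparison.

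**Figure D1:**
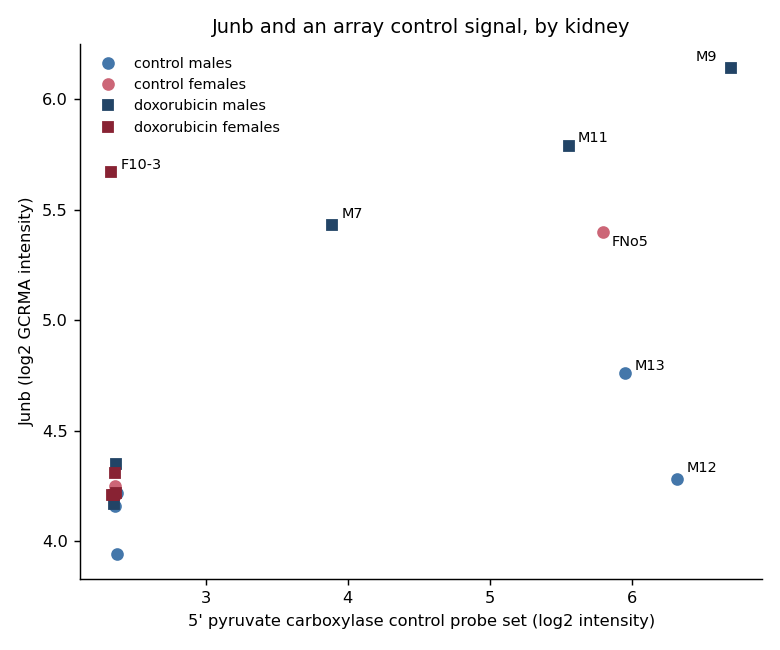
Junb (log2 GCRMA intensity, vertical axis) in each of 20 kidneys against the signal of the 5′ pyruvate carboxylase array control (log2 intensity, horizontal axis), with circles for control and squares for doxorubicin kidneys. The doxorubicin males M7, M9 and M11, at 5.43 to 6.14, all carry the control signal, and F10-3 at 5.67 is the high kidney without it.

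Egr1, a zinc finger factor induced together with Fos, varied most. Control males read 6.02, 5.27, 4.07, 6.30 and 7.72, and control females 7.30, 7.10, 6.80, 8.42 and 7.13. Doxorubicin males read 7.11, 9.76, 6.64, 6.32 and 5.58, and doxorubicin females 6.71, 7.29, 6.49, 8.69 and 7.56. From M30-2 at 4.07 to M30-4 at 9.76 the range was 5.69, a 51.8-fold span. Among control animals, 4 of 5 males lay below all females, and M12, the male with Xist signal, lay above 4 of them.
The SD of Egr1 within groups was 1.17, larger than that of 98.6% of all probe sets and of 97.6% of the 1551 with a mean within 0.5 of its own. The SD of Fos within groups was 0.91, larger than that of 96.9% of all. The corresponding shares were 92.4% for Ier3, 92.0% for Junb, 89.3% for Dusp1, 88.6% for Zfp36 and 86.3% for the brighter Jun probe set. They were 76.6% for the dimmer Jun probe set, 72.5% for Ier2, 63.0% for Atf3 and 5.73% for Fosb. Among probe sets of similar mean the share was 96.6% for Ier3, 95.1% for Fos, 94.3% for Dusp1 and 91.6% for Atf3. It was 88.8% for Zfp36, 83.9% and 66.8% for Jun, 75.1% for Junb, 39.0% for Ier2 and 25.6% for Fosb.

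Atf3, a stress factor that binds sites like those of CREB, read 2.17 to 2.26 in 15 of 20 kidneys. The values above that were 2.74 in M12, 2.44 in F10-1, 2.85 in F10-2, 2.49 in F10-3 and 3.11 in M30-4. Each group thus held a base level and at most 2 kidneys above it.
Ier2, a small nuclear protein of the early response, read 6.61 to 6.66 in 10 of 20 kidneys. Its highest values were 7.58 in M30-4, 7.39 in F10-3 and 7.16 in F10-2, and its lowest were 6.03 in M12 and 6.26 in M13. On the 6 arrays with 5′ pyruvate carboxylase signal it read 6.03 to 6.66, and on the other 14 it read 6.61 to 7.58.

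Dusp1, the phosphatase that inactivates MAP kinases, did not follow Fos and Egr1. Control males read 10.81, 10.34, 11.15, 10.78 and 10.80, and doxorubicin males 10.16, 10.35, 10.08, 10.22 and 9.59. The groups overlap by the values 10.34 of M13 and 10.35 of M30-4. Control females read 10.32, 10.36, 10.12, 10.93 and 10.43, and doxorubicin females 9.79, 11.13, 11.44, 9.37 and 11.37. The doxorubicin females split around their controls, with F4, F5 and F10-4 above all of these and F3 and F10-3 below them.
In males the difference was alike in both number series, -0.66 in the series 30- (3 control against 2 doxorubicin kidneys) and -0.61 in the series without prefix (2 against 3). Within each of these series the values did not overlap, which held in both series and in the same direction for 1 of 11 member probe sets and for 4.56% of all. In a single series it was common, at 3 of 11 against 20.1% of all in the series 30- and 6 of 11 against 25.2% without prefix. The same sign in both male series was not particular to Dusp1. It was also kept, in the series 30- and without prefix, by Junb (0.15 and 1.27), Ier2 (0.47 and 0.39) and Zfp36 (0.28 and 0.31).

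Zfp36, which binds AU-rich messages and hastens their decay, read 7.93 to 9.49 in control males, 8.36 to 9.71 in control females, 8.21 to 9.61 in doxorubicin males and 8.78 to 9.50 in doxorubicin females. The highest were F30-6 at 9.71 and M30-4 at 9.61. It was lower on the 6 arrays with 5′ pyruvate carboxylase signal, at 7.93 to 8.78 with a median of 8.24, than on the other 14, at 8.36 to 9.71 with a median of 9.24.
Ier3, which protects cells from apoptosis in many settings, read 9.92 to 11.23 in control males, 10.11 to 11.93 in control females, 9.88 to 11.46 in doxorubicin males and 10.05 to 11.62 in doxorubicin females. The 4 groups covered nearly the same span, and M30-4 at 10.20 and F10-3 at 10.05 lay in its lower part.

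**Figure D2:**
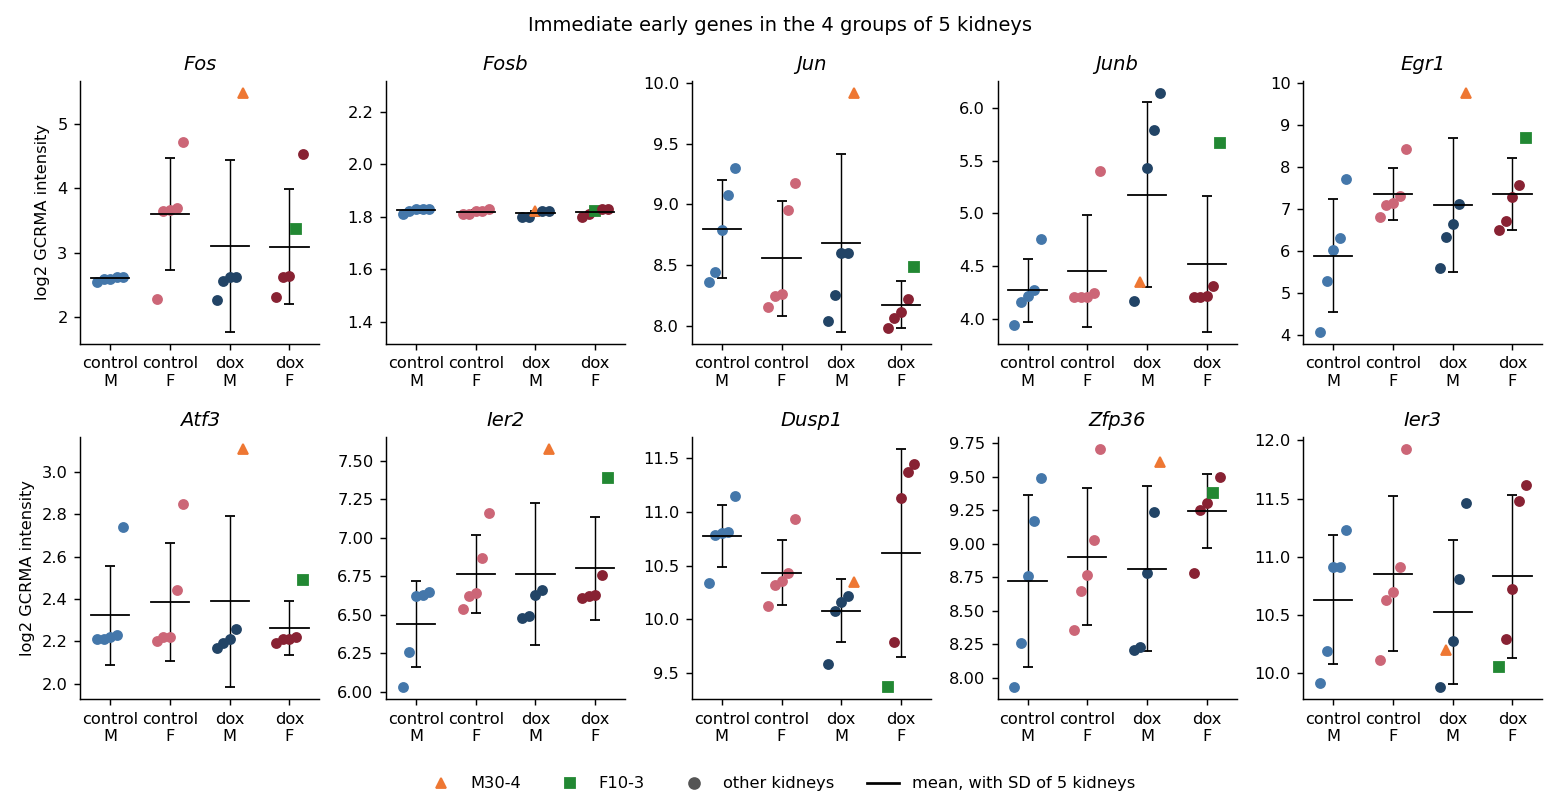
Values of the 10 genes (log2 GCRMA intensity, brighter probe set for Jun) in the 4 groups of 5 kidneys, with a point per kidney, the group mean as a line and the SD of 5 kidneys as bars. The triangle of M30-4 is the highest point for Fos, Jun, Egr1, Atf3 and Ier2, and the square of F10-3 is the lowest for Dusp1.

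Between control and doxorubicin males, no member passed the test. With limma over all probe sets and an adjusted p under 0.03, 0 of 11 member probe sets were called, against 12 probe sets or 0.053% of all. By SAM 0 of 11 were called too, against 29 probe sets, and at an unadjusted p under 0.05 there was 1 of 11, against 7.53% of all probe sets. In 0 of 11 did the groups of 5 not overlap, against 1.4% of all.
Junb was 0.90 ± 0.38 (SE) higher after doxorubicin, with means of 5.18 ± 0.88 and 4.27 ± 0.30 (SD, n = 5 each, limma adjusted p = 0.61). With a term for the arrays with 5′ pyruvate carboxylase signal the difference was 0.70 (limma adjusted p = 0.311), and on the 14 arrays without the signal, where the males are the 3 control and 2 doxorubicin kidneys numbered 30-, it was 0.15. In the males without prefix, all with the signal, it was 1.27.
Dusp1 was 0.70 lower after doxorubicin (log2 difference -0.70 ± 0.34, limma adjusted p = 0.669), with means of 10.08 ± 0.29 and 10.78 ± 0.29 (SD, n = 5 each). Its 95% interval ran from -1.41 to 0.02. This interval uses the spread shared by the 4 groups, and the SD of Dusp1 was 0.97 in doxorubicin females. Without M30-4 the difference was -0.76, and Junb, likewise without this kidney, differed by 1.11 (limma adjusted p = 0.488).
Egr1 differed by 1.21 ± 0.72 (limma adjusted p = 0.723) and Fos by 0.50 ± 0.56 (limma adjusted p = 0.733). Without M30-4 that of Egr1 was 0.54 and that of Fos was -0.09, and the difference of Jun (1417409_at) moved from -0.11 to -0.42. Egr1 also moved to 0.75 without control male M30-2, the lowest of the 20. In the males numbered 30- it was 2.97 higher after doxorubicin, with M30-3 and M30-4 above all 3 controls, and in those without prefix the difference was -0.32. Without M30-4 the difference of Ier2 moved from 0.33 to 0.12. The other members differed by -0.11 to 0.33, with intervals that reached from -0.94 to 0.79.
Over the 10 genes the median difference was 0.08, with 6 means higher and 4 lower, and the median over all probe sets was -0.01.

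Between control and doxorubicin females, the members differed by -0.51 to 0.34. Limma at an adjusted p under 0.04 called 0 of 11, against 9 probe sets or 0.0398% of all, SAM called 0 of 11 against 31 probe sets, and 0 of 11 had an unadjusted p under 0.05 against 4.73% of all. In 0 of 11 did the groups not overlap, against 1.68% of all.
Zfp36 differed by 0.34 ± 0.33 (limma adjusted p = 1), and its control and doxorubicin kidneys numbered 10- did not overlap, at 8.36 to 8.65 and 9.38 to 9.50. This held in that series of 2 against 2 kidneys for 3 of 11 member probe sets, with Egr1 and Jun (1448694_at), and for 26.7% of all. Without control female F10-2 the difference of Zfp36 was 0.20, and without F30-6 it was 0.54. Fos differed by -0.51 ± 0.56, with an interval from -1.70 to 0.68, and leaving out 1 kidney gave -0.23 (F30-6), -0.31 (F3), -0.84 (F10-2) or -0.87 (F4). Dusp1 differed by 0.19 ± 0.34, by 0.50 (limma adjusted p = 1) without F10-3 and by -0.02 without F5. For Egr1 the means of both groups were 7.35, with an interval from -1.53 to 1.53, so a change of up to 1.5 on the log2 scale could not be told from none.

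Between the sexes in control kidneys, Egr1 and Fos had the largest differences. Limma at an adjusted p under 0.003 called 0 of 11, against 548 probe sets or 2.42% of all. SAM called 0 of 11 against 886 probe sets, 0 of 11 had an unadjusted p under 0.05 against 20% of all, and in 0 of 11 did the groups not overlap, against 7.55% of all.
Egr1 was 1.48 ± 0.72 higher in females on the log2 scale (limma adjusted p = 0.273), with means of 7.35 and 5.88 and an interval from -0.05 to 3.01. Without M30-4, which enters only through the shared estimate of spread, the SE was 0.57 (limma adjusted p = 0.126). Fos had a mean of 3.60 in females and 2.60 in males of the control groups (limma adjusted p = 0.368). The difference was 1.00 ± 0.56 with an interval from -0.19 to 2.19, and F10-2, at 2.28, lay below all control males. All 5 control males gave a weak signal of 2.55 to 2.63, so the size of this difference is poorly measured. The endothelial and podocyte marker lists were also higher in control females, at 0.10 to 0.60 and 0.12 to 0.93 relative to the median of 20 kidneys. In control males they were at -0.71 to -0.07 and -0.90 to -0.26. The lists of other nephron segments (0.03 to 0.40 against -0.37 to -0.11) and of injury genes (-0.04 to 0.07 against -0.60 to -0.08) did not overlap either. Limma called 3 of 7 endothelial markers (Tek, Flt1 and Kdr) and 2 of 4 podocyte markers (Synpo and Podxl), all higher in females. The part of these lists in the Egr1 and Fos differences was not tested.

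Between the sexes after doxorubicin, limma called 0 of 11 at an adjusted p under 0.003, against 365 probe sets or 1.61% of all. SAM called 0 of 11 against 1067 probe sets, 0 of 11 had an unadjusted p under 0.05 against 22.2% of all, and in 0 of 11 did the groups not overlap, against 9.71% of all. Dusp1 was 0.54 ± 0.34 higher in females (limma adjusted p = 0.382), 0.86 without F10-3 (limma adjusted p = 0.101) and 0.34 without F5. The differences with the smallest p were those of Jun (1417409_at), -0.52 ± 0.30 (limma adjusted p = 0.345), and Junb, -0.65 ± 0.38 (limma adjusted p = 0.347), each lower in females. Without M30-4 that of Jun was -0.21, and its dimmer probe set (1448694_at) gave -0.03. Without M9 that of Junb was -0.41. On the 14 arrays without 5′ pyruvate carboxylase signal, where the doxorubicin males are only M30-3 and M30-4, that of Junb was 0.26 in the opposite direction. Zfp36 was 0.43 ± 0.33 higher in females (limma adjusted p = 0.494). With the number series as a term this became 0.84 (limma adjusted p = 0.013). On the same 14 arrays it was -0.18, so its direction depended on which arrays were compared. M30-3 and M30-4 are again the only doxorubicin males there.

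The difference of the doxorubicin responses of the sexes, tested as an interaction, was past an adjusted p of 0.05 in 0 of 11, against 1 probe set or 0.00442% of all. An unadjusted p under 0.05 was reached by 0 of 11, against 6.33% of all, and SAM was not run for it. Dusp1 had the smallest p, with a female response 0.88 ± 0.48 above that of the males (limma adjusted p = 0.778). Without F10-3 it was 1.20 (limma adjusted p = 0.44). For Egr1 the difference was -1.21 ± 1.02 and for Fos -1.01 ± 0.80, and without M30-4 these were -0.54 and -0.42. Without M30-2 that of Egr1 was -0.76.

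**Figure D3:**
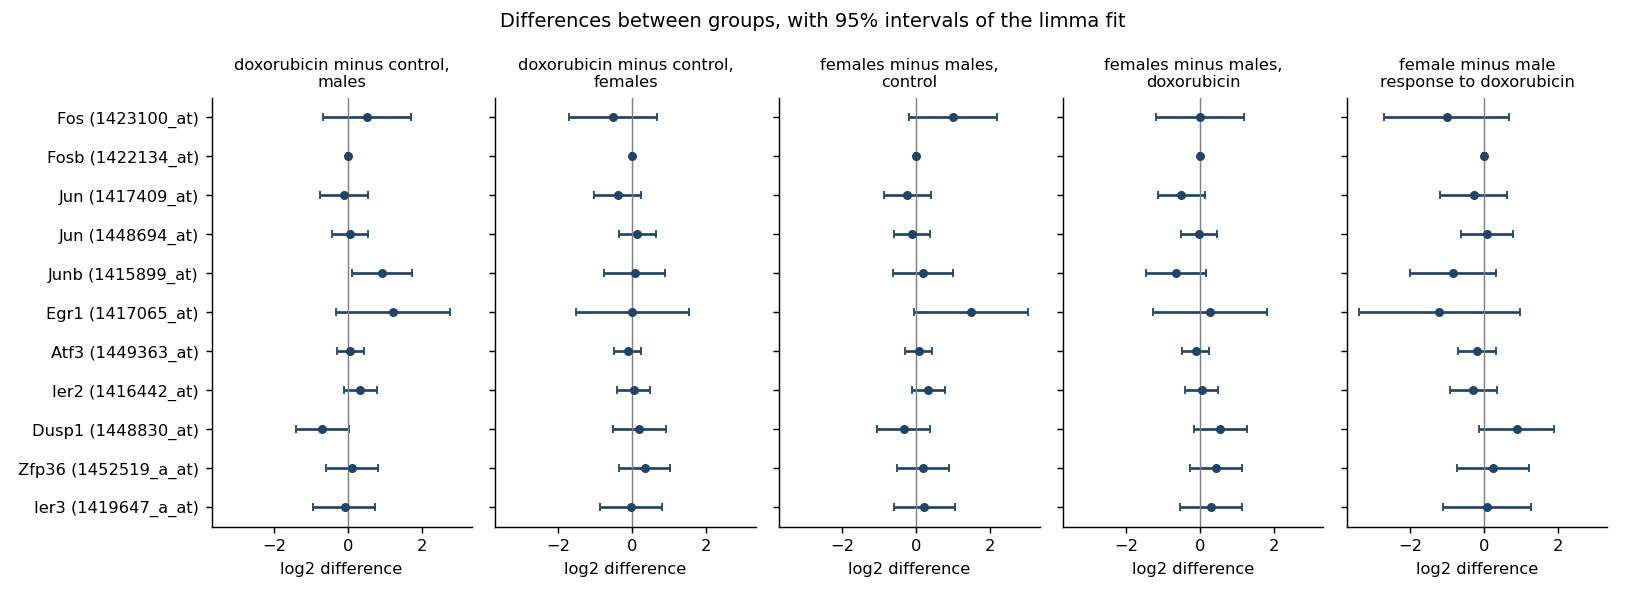
Log2 differences (horizontal axis) of the 11 member probe sets in the 4 comparisons and in the difference of responses, as points with the 95% interval of the limma fit over 20 kidneys. The intervals of all probe sets include 0 except that of Junb in males, which runs from 0.09 to 1.72, and the widest are those of Egr1 and Fos.

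The kidneys were also described singly. A member level was formed for each kidney as the mean over the 10 genes of the log2 value minus its median over 20 kidneys. It was 0.93 in M30-4, and the next were F30-6 at 0.50, F10-3 at 0.38 and F1 at 0.34. The group means were -0.06 ± 0.08 in control males, 0.23 ± 0.23 in control females, 0.16 ± 0.45 in doxorubicin males, and among doxorubicin females 0.19 ± 0.22 (SD, n = 5 each). Control males were the most even group, from -0.13 to 0.06.

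M30-4 held the highest value of 20 for 5 of the 10 genes, Fos, Jun, Egr1, Atf3 and Ier2. It held the highest value for 15.2% of all probe sets and for 20.7% of the upper 60% by mean, so this array was often extreme.
Against the mean of the other 4 doxorubicin males, Egr1 was 3.35 higher in M30-4, or 10.2-fold, a larger difference than that of 99.9% of all probe sets. Jun was 1.54 and 1.15 higher with its probe sets, Ier2 1.01 and Zfp36 1.00, whereas Dusp1 was 0.34 higher. Smaller differences were found in 98.4% and 96.4% of all probe sets for Jun, 95.1% for Ier2 and 78.0% for Dusp1. The share for Zfp36 was slightly below that for Ier2. Differences of the size seen for Ier2 and Zfp36 were therefore not rare on this array. Fos and Atf3 read 5.48 and 3.11 against at most 2.62 and 2.26 in the other 4. These lower values are weak signals, in or below the flat range of each probe set, so no exact fold is given.
Junb and Ier3 went the other way, with differences of -1.03 and -0.41. All early transcription factors except Junb and Fosb thus stood above their group in this kidney, and the feedback and survival genes were divided. There is no replicate of this kidney, so no test was made.

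F10-3 shared part of this pattern, though not for Junb or Dusp1. Against the other 4 doxorubicin females, Egr1 was 1.68 higher (3.20-fold), Junb 1.43 and Ier2 0.74, where 99.1%, 98.8% and 96.7% of all probe sets had smaller differences. Fos was 0.34 above their mean, though F4 at 4.54 lay above F10-3 at 3.37, and Jun was 0.38 and 0.25 higher. Dusp1 was -1.57 and Ier3 -0.98 relative to the other 4, the first smaller than all but 0.358% of probe sets. Its Dusp1 value of 9.37 was the lowest of the 20, so high Egr1 and low Dusp1 occurred in the same kidney. In M30-4, by contrast, Junb differed by -1.03 and Dusp1 by 0.34 from the mean of the other 4 doxorubicin males.

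**Figure D4:**
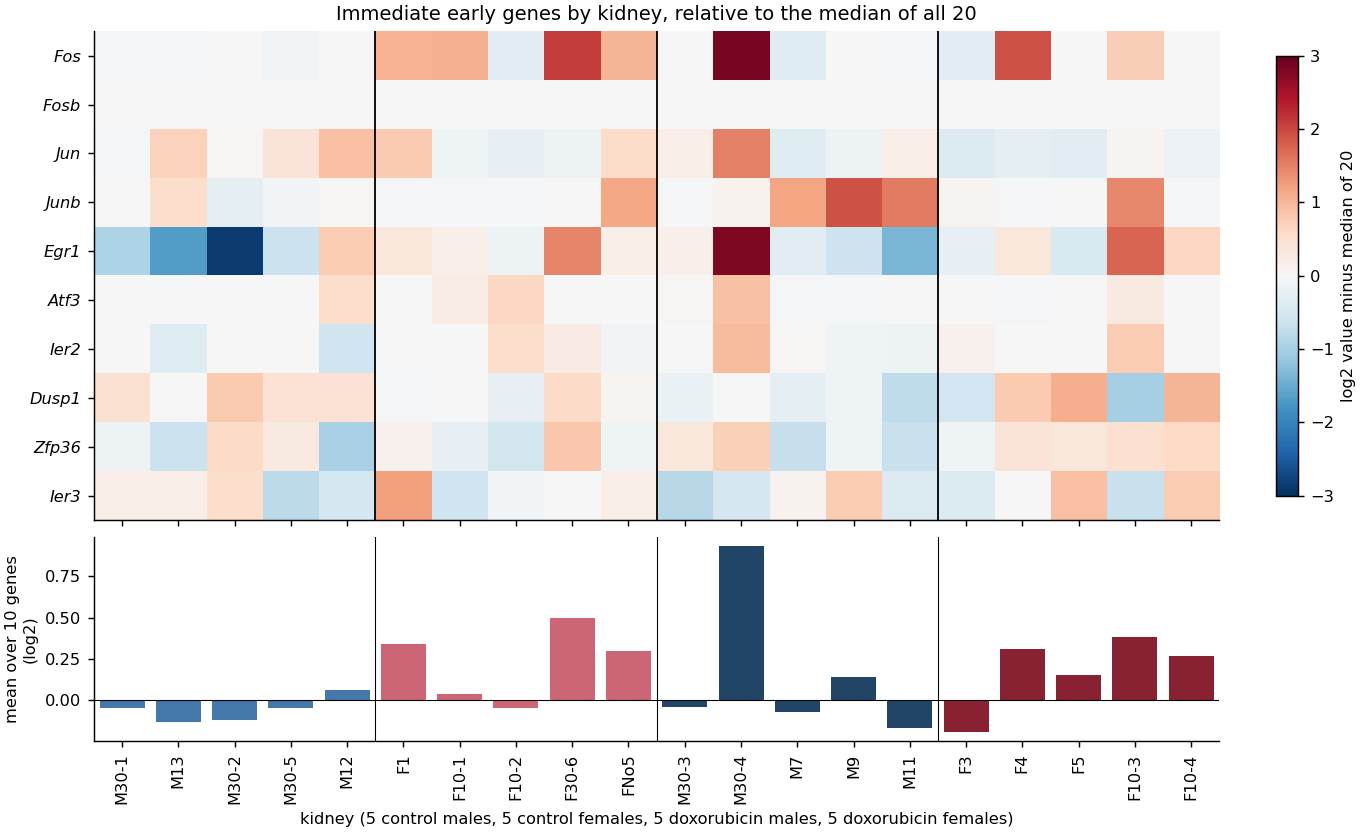
Log2 value minus the median of 20 kidneys for each gene and kidney (upper panel, red above and blue below the median) and its mean over the 10 genes (lower panel, log2), with vertical lines between the groups (from left, males then females of the controls, males then females given doxorubicin). M30-4 has the highest mean, 0.93, and the row of Fosb is blank because its values span 1.80 to 1.83.

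Both kidneys also held markers of other cells and of injury. Of 11 leukocyte markers 10 were above their median in M30-4 and 10 in F10-3, and the mean over the list was 1.48 and 1.88. The log2 summed intensity of the list was 11.90 to 12.83 in control males, 12.69 to 12.97 in control females, 12.10 to 13.80 in doxorubicin males and 12.69 to 13.89 in doxorubicin females. Lcn2, a secreted protein of injured tubules and neutrophils, read 10.37 in M30-4 and 10.81 in F10-3, with a median of 4.46 over 20. S100a8, a neutrophil gene, read 5.02 in M30-4 and 10.78 in F10-3, with a median of 2.95. All 4 red cell markers measured were above their median in M30-4, with a list level of 1.17, and likewise in F5 at 1.14 and F3 at 1.02. F10-3 also had the highest level of the fat markers, 1.99, and M30-4 the lowest, -1.22. Control kidneys came close to both, with FNo5 at 1.87 and M30-5 at -1.19. The list of injury genes stood at 1.65 in M30-4 and 1.08 in F10-3, and at 0.80 in M30-3, where Lcn2 was 7.73 and the member level was -0.04. The part of these cells in the member values was not tested.

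Across the 20 kidneys, with group means removed, the members did not form a single block. Of 45 pairs 24 had a Pearson r above 0, and the median r was 0.07, or -0.01 without M30-4. A permutation test within groups (100000 resamples, two-sided) gave 0 pairs with an adjusted p under 0.05 by r and 0 by Spearman's rho, and 8 pairs by each at an unadjusted p under 0.05.
The smallest p were those of Fos with Zfp36, at r = 0.58 (permutation p = 0.00237, adjusted p = 0.107) and rho = 0.54 (permutation p = 0.00578, adjusted p = 0.139), with r = 0.54 without M30-4 and F4. Dusp1 and Zfp36 followed at r = 0.44 (permutation p = 0.00517, adjusted p = 0.116) and rho = 0.51 (permutation p = 0.00903, adjusted p = 0.139), with r = 0.57 without F10-3 and F3. Fos and Egr1 had r = 0.63 (permutation p = 0.0152, adjusted p = 0.158) and rho = 0.52 (permutation p = 0.0182, adjusted p = 0.164). Leaving out M30-4 and F4, the 2 farthest in Fos, gave r = 0.48, and leaving out M30-4 alone gave 0.40. Egr1 and Atf3 had r = 0.64 (permutation p = 0.0205, adjusted p = 0.158) and rho = 0.30 (permutation p = 0.163, adjusted p = 0.46). Their r was 0.17 without M30-4 and M12, and 0.42 without M30-4 alone. Jun and Egr1 had r = 0.64 (permutation p = 0.021, adjusted p = 0.158) and rho = 0.49 (permutation p = 0.0402, adjusted p = 0.242), r = 0.46 without M30-4 and F1, and 0.42 without M30-4 alone.
Dusp1 and Junb ran against each other, with r = -0.50 (permutation p = 0.0135, adjusted p = 0.158) and rho = -0.58 (permutation p = 0.00926, adjusted p = 0.139), and r = -0.38 without F10-3 and M9. Dusp1 and Egr1 had r of 0 to 2 decimals and rho = 0.13 (permutation p = 0.998 and 0.609). No pair passed the correction over 45.

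**Figure D5:**
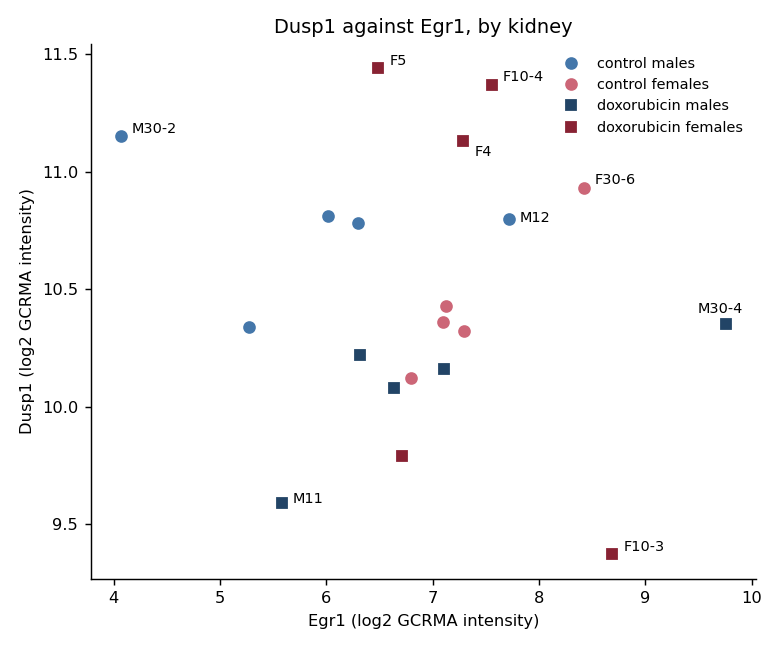
Dusp1 (vertical axis) against Egr1 (horizontal axis), both as log2 GCRMA intensity, in each of 20 kidneys. M30-4 combines the highest Egr1, 9.76, with a Dusp1 of 10.35, F10-3 combines 8.69 with the lowest Dusp1, 9.37, and no common trend is seen.

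Other immediate early genes were described from a list of 46, of which 44 were measured. In each of the 5 comparisons 0 of 44 were called by limma. Their median difference was 0.18 in males after doxorubicin, 0.00 in females after doxorubicin and 0.11 and 0.03 between the sexes, against -0.01, 0.00, -0.01 and 0.01 over all probe sets. At an unadjusted p under 0.05 there were 8, 0, 6 and 8 of 44, against 7.53%, 4.73%, 20% and 22.2% of all probe sets.
In males after doxorubicin the smallest p were those of Plk2, a kinase induced by stress, at 1.18 ± 0.28 (limma adjusted p = 0.152), and Gadd45g at -1.16 ± 0.32 (limma adjusted p = 0.255). Between the control sexes Cebpd, a factor of the acute phase response, was 2.35 ± 0.50 higher in females (limma adjusted p = 0.00682) and Mcl1, which protects from apoptosis, 0.66 ± 0.13 (limma adjusted p = 0.00308), both outside the threshold of 0.003.
M30-4 was above the median of 20 in 40 of these 44 genes, and the share of all probe sets above their median in it was not determined. It was highest in 15, against 15.2% of all probe sets and 20.7% of the upper 60% by mean. Among the 15 were Nr4a1 at 7.20, Maff at 4.65, Rhob at 11.13, Plk2 at 7.78 and Socs3 at 9.42. Others were weak signals, such as Egr2 at 3.35 and Fosl2 at 3.14. Socs3, the feedback inhibitor of cytokine signalling, read 9.16 in F10-3 and had a median of 4.75. High values in M30-4 were therefore not limited to the 10 members, nor to early genes. F4, with its Fos of 4.54, was highest for 5 of the 44, Cebpd, Sgk1, Dusp6, Per1 and Nfkbia, and for 3.25% of all probe sets.

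Of the factors and kinases that act on early promoters 19 of 25 were measured, and 0 of 19 were called in any of the 5 comparisons. Elk3, a partner of serum response factor, differed by 0.99 ± 0.26 in males after doxorubicin (limma adjusted p = 0.217) and by 1.20 ± 0.26 between control females and males (limma adjusted p = 0.00737). Of the AP-1 and bZIP partners 12 of 13 were measured and 0 of 12 called. Jund, the AP-1 subunit that is present without a stimulus and is also in the list of early genes, lay between 9.86 and 10.36. Of the 12 heat shock and oxidative stress genes 0 were called, and their medians were -0.25 in males and -0.07 in females after doxorubicin. Among control males this list stood at 0.68 in M13 and 0.64 in M12 and at -0.22 to 0.17 in the other 3.
Of 12 p53 targets 10 were measured, a list set beside the members because doxorubicin damages DNA. Cdkn1a, the cell cycle inhibitor p21, was 0.89 ± 0.13 higher after doxorubicin in males (limma adjusted p = 0.0154) and 0.77 lower in doxorubicin females than in doxorubicin males (log2 difference -0.77, limma adjusted p = 0.00148). The other 9 did not pass in these comparisons. Of 11 kidney injury genes measured 0 were called, and Lcn2 differed by 3.62 ± 1.13 in males after doxorubicin (limma adjusted p = 0.379).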

How the data were processed

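Kidney RNA of 20 Balb/c mice, 4 groups of 5, was measured on Affymetrix M430A 2.0 arrays. The authors processed the arrays with GCRMA in Array Assist (version not given in the sources used here), which corrects background and normalizes between arrays. The deposited values are intensity on a linear scale, 1 for each probe set, and log2 was taken with nothing added. No value was missing, and 64 array controls were kept out of the tests of genes. They gave measures of RNA quality, which also entered some alternatives as terms. Precision is limited by the 5 arrays of a group. GCRMA compresses weak probe sets to a flat base.

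A single linear model over 20 arrays was fitted in limma 3.58.1 (R 4.3.3), with Benjamini-Hochberg adjustment over 22626 probe sets and thresholds of 0.03 and 0.04 for doxorubicin in males and females, 0.003 for sex and 0.05 for the interaction. Correlations were tested by permutation with numpy 2.4.6. Intervals of 95% come from the limma fit. SAM with 100 permutations and the methods' t-test at 0.01 were alternatives for the 4 comparisons of groups, and further ones were array weights, a trended robust prior, the compared groups alone, median centring, quantile normalization, a term for the number series (the prefix of the label number) or for Gapdh signal, the brighter 60% of probe sets, and leaving out arrays. The 5′ pyruvate carboxylase term and its 14 arrays were added after the data were seen. The limma and SAM steps were tested on simulated data.

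The members and lists were chosen with earlier results of these data known. Named genes were all members, some of the listed genes past a threshold or with the smallest p, and the 10 genes most like the members. Not all listed genes past a threshold are given, among them Slc22a6, Cubn, Kap and Atp6v1b1 between the control sexes. Genes named for single kidneys, and those most like Dusp1, were chosen after their values were seen. In levels and lists the brightest probe set stands for a gene. The labels number the animals separately, and p-values measure the spread between them.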

Additional observations from a re-analysis of the deposited data

Results flagged for a closer look

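Each member probe set and the member level were searched in each group of 5 for a kidney whose gap to the nearest of the others took more than 0.71 of the range of the group. Of 48 such sets 10 were found. Chance finds about 1 in 20 groups in evenly spread data, and the same search over all probe sets found 12.9%. In doxorubicin males M30-4 stood above the other 4 for Fos at 5.48, Jun (1448694_at) at 9.46, Atf3 at 3.11, Ier2 at 7.58 and the member level at 0.93. In doxorubicin females F10-3 stood above the other 4 for Junb at 5.67, Atf3 at 2.49 and Ier2 at 7.39. The remaining kidneys were FNo5 in control females, with Junb at 5.40, and M12 in control males, with Atf3 at 2.74. Egr1 in M30-4, at 9.76, was not among them, since the other doxorubicin males were themselves spread.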

How the results depend on the processing

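The count of members called was 0 in all 5 comparisons under every limma alternative, in the 4 comparisons of groups by SAM, and when each array in turn was left out. The exception was the methods' t-test at an unadjusted p under 0.01, which gave 1 member, Dusp1, in males after doxorubicin, where it gave 286 probe sets in all. After adjustment it gave 0. The lowest adjusted p of any member was 0.013, for Zfp36 between the sexes after doxorubicin with the number series as a term, outside the threshold of 0.003. Of 1723 recomputed member differences 1614 kept their direction and 109 turned, none of them called. The member level of M30-4 was the highest of 20 in every setting, from 0.72 without Fos or Egr1 to 1.09 without Ier3. A fall may not be seen in members with weak, flat values (Fosb, Atf3, and Fos and Junb in most kidneys). Intervals as wide as those of Egr1 hide differences of 1. No paired analysis was possible because the label numbers are not shared between groups.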

Other observations

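The genes whose values ran most like the mean of the 10 members over 20 kidneys, with group means removed, were Bad (r = 0.88), Snd1 (0.87), Mzt2 (0.86), Avpi1 (0.85), Ap2s1 (0.85), Dbn1 (0.84), Ank (0.83), Nfkbie (0.82), Hbegf (0.82) and Smox (0.82). All but Ank had their highest value in M30-4, and without this kidney the r of the 10 ranged from 0.59 (Nfkbie) to 0.74 (Dbn1). Hbegf, a growth factor of the EGF family, read 5.70 there with a median of 4.50, and Nfkbie, an inhibitor of NF-kappaB, 5.18 with a median of 3.90.

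The 10 genes most like Dusp1, a list added after its values were seen, included Sgk1 (r = 0.77) and Tsc22d3 (r = 0.75), which are both known as glucocorticoid-induced genes, with r of 0.77 and 0.76 without M30-4. Tsc22d3 read 6.61 to 10.33 with a median of 8.47, and Sgk1 10.98 to 13.26 with a median of 12.20. The list was led by Psme3 and Ndufs7 at r = 0.78. The points share their arrays, and no p is given.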
